A study of Mus musculus with 27 samples.

Results

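The lipoprotein receptor family around Lrp1 was followed in cortex of 5xFAD mice given vehicle, R33 or R55. The members were taken as a set of gene symbols, and the table of 26264 symbols held all 10 of them. The 9 described here are listed as lrp1, lrp1b, lrp2, lrp3, lrp4, lrp5, lrp6, lrp8 and vldlr. Of these, 8 reached a mean of 1 FPKM over the 27 libraries used and were among the 12976 genes tested, and Lrp2 did not. FPKM are fragments counted on a gene, divided by its length in kilobases and scaled to the library's total, so they give levels per length. Differences between treatments moved with gene length, as described further on, which limits comparison of members of unlike length.

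Every mouse used here was a female 5xFAD mouse on a C57BL6 background, aged 16 weeks. These mice carry mutant human transgenes of familial Alzheimer's disease driven by the neuronal Thy1 promoter, and non-transgenic mice were not analysed here. A volume of 500 nL of vehicle, or of R33 or R55 at 10 mM, was infused into the parietal cortex of 1 hemisphere, and a cortical block was taken from each hemisphere 24 h later. The vehicle group had 4 mice (8 libraries), the R33 group 5 mice (9 libraries) and the R55 group 5 mice (10 libraries). The R33 mouse labelled AE had only its injected hemisphere among the libraries used. R33 and R55 are small molecules that stabilise retromer, the complex that sorts cargo out of endosomes. The comparisons ask whether either compound altered the RNA level of these receptors, and whether the injection itself did.

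Members of this receptor family are single-pass membrane proteins with cysteine-rich class A repeats, through which many of them bind ligands. Most of them also hold beta-propeller domains, which in endocytic members help to release ligand in acidified endosomes. Lrp1 takes up apolipoprotein E particles in brain and also clears protease complexes and amyloid-beta. Vldlr and Lrp8 (ApoER2) are the receptors of the secreted guidance protein Reelin, Lrp5 and Lrp6 are co-receptors of Wnt ligands, and Lrp4 is the receptor of agrin. Lrp2 (megalin) is the endocytic receptor of absorptive epithelia, among them choroid plexus and ependyma. Lrp1b is a close relative of Lrp1, and Lrp3 is a shorter, less studied member.

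Many of the family's cytoplasmic tails hold an Asn-Pro-any-Tyr (NPxY) motif, which adaptor proteins of the endocytic and Reelin pathways bind. A search of the last 200 codons of each canonical GENCODE M39 transcript found 9 such motifs in 6 of the 9 members, and none in Lrp3, Lrp5 or Lrp6. The coding stretches are shown because the motif is what the tails of these 6 members share and what allows their closeness to be compared. The 12 capital bases are the 4 codons of the motif, read 5′ to 3′ on the coding strand.
Lrp1, first motif: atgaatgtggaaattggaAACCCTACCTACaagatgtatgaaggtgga
Lrp1, second motif: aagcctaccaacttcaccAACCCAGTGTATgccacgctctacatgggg
Lrp1b, first motif: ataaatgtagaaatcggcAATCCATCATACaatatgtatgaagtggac
Lrp1b, second motif: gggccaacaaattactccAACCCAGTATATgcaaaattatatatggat
Lrp2, first motif: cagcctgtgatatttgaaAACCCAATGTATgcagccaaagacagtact
Lrp2, second motif: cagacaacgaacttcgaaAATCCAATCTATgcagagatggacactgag
Lrp4: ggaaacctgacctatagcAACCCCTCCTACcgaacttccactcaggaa
Lrp8: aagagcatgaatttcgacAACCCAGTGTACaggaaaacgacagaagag
Vldlr: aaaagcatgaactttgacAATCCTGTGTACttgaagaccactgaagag

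On GRCm39, the build of the authors' alignment, the stretches of Vldlr (chr19:27225322-27225369), Lrp8 (chr4:107726240-107726287) and Lrp4 (chr2:91338848-91338895) lay on the plus strand, each within 1 coding exon. The first motifs of Lrp1 (chr10:127375159-127375206), Lrp1b (chr2:40490323-40490370) and Lrp2 (chr2:69260631-69260678) lay within 1 coding exon on the minus strand. The stretches around the second motifs of Lrp1 (chr10:127374915-127375104), Lrp1b (chr2:40487042-40488427) and Lrp2 (chr2:69256136-69256350) were split by an intron, which the printed letters leave out. Vldlr and Lrp8 shared 38 of 48 bases, and Lrp4 shared 26 of 48 with Vldlr and 23 of 48 with Lrp8. Lrp1 and Lrp1b shared 35 of 48 bases at the first motif and 32 of 48 at the second. In 5 of the 9 stretches a phenylalanine codon stood 2 codons before the motif, including those of Vldlr and Lrp8.

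The libraries held 15932197 to 38077027 fragments on genes. The sum of 4 neuronal markers lay between 1720 and 2850 FPKM in all of them, and 4 haemoglobin genes were listed at 0 in all 27, which gives no measure of blood. Alas2, the other red cell marker, was between 1.0 and 8.17 FPKM and 0.55 higher with R55 than with vehicle on the log2(FPKM + 1) scale (adjusted p = 0.557 in limma). Ttr, a choroid plexus marker, exceeded 100 FPKM in 7 libraries, from vehicle mice J and L, R33 mice K (both hemispheres), N and O and R55 mouse P. The injected library of R33 mouse AD had the lowest sum of 4 astrocyte markers of all 27 libraries, 189 FPKM against a median of 451. It also had the lowest value of 5 members (Lrp1, Lrp4, Lrp6, Lrp8 and Vldlr), and drug differences are also given without it. Mouse labels had 1 letter (9 mice) or 2 letters (5 mice), the labels do not say why, and both kinds occurred in every treatment group. Nothing in the labels says more about the mice as separate replicates than their letter, and fewer cells of a type cannot be told apart from less RNA per cell in bulk tissue.

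In level per length over all mice, Lrp1 stood first and Lrp2 last. Over 14 mouse means, Lrp1 had 27.3 ± 5.55 FPKM (SD, n = 14) and Lrp3 22.7 ± 1.25 FPKM. Lrp1 was above Lrp3 in only 9 of the 14 mice (two-sided exact paired permutation p = 0.0162). The order of this pair differed by treatment, with Lrp1 above Lrp3 in 4 of 4 vehicle, 4 of 5 R33 and 1 of 5 R55 mice, and with R55 their means were 23.8 and 23.5 FPKM. The 2 genes differ in length, 14891 bp for Lrp1 and 3994 bp for Lrp3. Between R55 and vehicle, tested genes of 12000 bp or more differed by -0.22 in median, and those of 2000 to 4000 bp by 0.04. The part of length in the changed order was not tested. Vldlr with 9.33 ± 1.47 FPKM came next, below Lrp3 in 14 of 14 mice (exact permutation p = 0.000122). Lrp8, the other Reelin receptor, followed with 8.47 ± 1.21 FPKM, below Vldlr in 11 of 14 mice (exact permutation p = 0.00195).

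Lower in the order, Lrp4 with 5.24 ± 1.16 FPKM and Lrp6 with 5.19 ± 0.524 FPKM could not be ranked (Lrp4 higher in 7 of 14 mice, exact permutation p = 0.792). Lrp5 had 3.61 ± 0.669 FPKM and Lrp1b 1.46 ± 0.448 FPKM, and each was below its upper neighbour in 14 of 14 mice. Between libraries, Lrp3 varied least, from 18.5 to 26.1 FPKM. Lrp4 had the widest ratio of highest to lowest library among the 8 tested members, from 1.78 FPKM in the injected library of mouse AD to 7.14 FPKM. Lrp2 had 0.0193 ± 0.0154 FPKM, which came from 235 fragments in all 27 libraries together. It was at 0 in 4 libraries, had 3 or fewer fragments in 11, and reached at most 32 fragments. A library with 3 fragments would show 0.00511 to 0.0122 FPKM, so Lrp2 was close to the limit of detection and no fold is given for it.

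**Figure D1:**
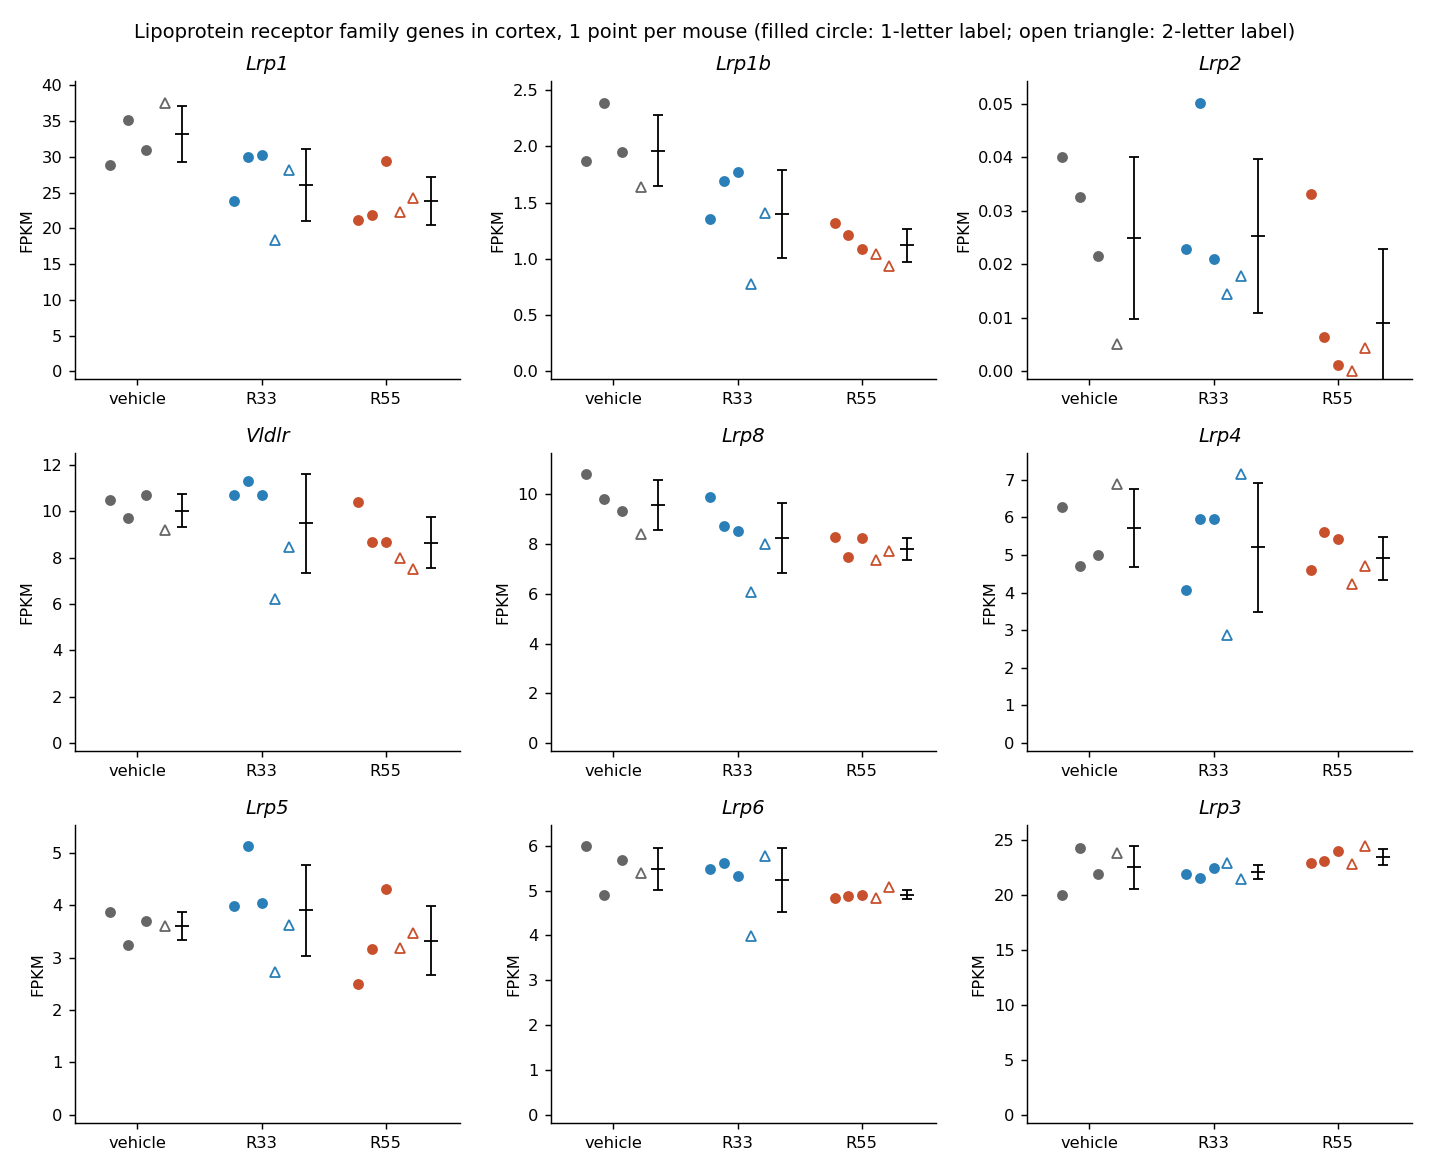
Level of each family member in FPKM (vertical axis, linear, from 0) for every mouse, as the mean of its hemispheres, by treatment; bars are the mean ± SD of 4 vehicle, 5 R33 and 5 R55 mice. All 5 R55 mice lie below all 4 vehicle mice for Lrp1b and Lrp8, while Lrp3 stays between 20 and 24.4 FPKM in every group, and open triangles (2-letter labels) lie low for Vldlr.

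In R55-treated mice 7 of the 8 tested members had lower mean values than in vehicle-treated mice, led by Lrp1 and Lrp1b. Among all tested genes 39.8% were lower. None of the members passed the test over all genes. Mean levels went from 33.2 to 23.8 FPKM for Lrp1, from 1.96 to 1.12 FPKM for Lrp1b and from 9.58 to 7.81 FPKM for Lrp8. With limma, 0 of 8 members had an adjusted p-value under 0.05, where 1 of 12976 genes (0.00771%) did, and limma voom on recovered fragments also called 0 members and 1 gene. At an unadjusted p-value under 0.05, 3 of 8 members were lower (Lrp1, Lrp1b and Lrp8) and 0 were higher, where 3.74% of all tested genes were lower at that level. The median difference of the members was -0.19 on the log2(FPKM + 1) scale, beside 0.03 over all tested genes.

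Markers of other cell types also differed in mean between these groups, with 0 called. For R55 against vehicle all 5 striatum markers were lower (median -0.26), as were all 5 choroid plexus markers (-0.40) and all 4 endothelium markers (-0.135). All 4 oligodendrocyte markers were higher (0.125), and no marker in these lists had an unadjusted p-value under 0.05. All 4 cortical layer markers (0.082) were also higher, as were 3 of 4 neuronal (0.106), astrocyte (0.166) and microglia (0.072) markers. Among them 1 astrocyte marker was under 0.05 unadjusted, where 4.71% of all genes were higher at that level. Mural and ependymal markers went both ways. Summed choroid plexus markers ranged from 6.0 to 1140 FPKM with vehicle, from 8.81 to 1660 with R33 and from 4.16 to 155 with R55. The ranges of summed endothelium markers were 28 to 62.9, 21 to 61.1 and 22.1 to 90.3 FPKM, and those of summed striatum markers 38.6 to 150.0, 32.5 to 206 and 31.7 to 64.7 FPKM. Their part in the members' differences was not tested.

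Lrp1, the large endocytic receptor, had mouse means of 28.9, 35.2, 31.0 and 37.6 FPKM with vehicle (mice J, L, M and AH) and of 21.1, 21.9, 29.4, 22.3 and 24.2 FPKM with R55 (mice P, Q, R, AA and AB). Of the R55 mice, 4 of 5 lay below the lowest vehicle mouse, and mouse R overlapped the vehicle range. The difference was -0.47 ± 0.12 (SE) on the log2(FPKM + 1) scale, with a 95% interval from -0.71 to -0.23 and an adjusted p-value of 0.235 in limma. Its exact permutation p over mouse means was 0.0317, where the smallest possible value is 0.0159.

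Lrp1b, its close relative, had 1.87, 2.39, 1.95 and 1.64 FPKM with vehicle and 1.32, 1.21, 1.09, 1.04 and 0.935 FPKM with R55. The groups did not overlap. The difference was -0.48 ± 0.10 (SE), with an adjusted p-value of 0.13, and the exact permutation p was 0.0159. Since Lrp1b was near 1 FPKM, the added 1 compressed the difference, which was -0.76 with a pseudocount of 0.1 and -0.82 in limma voom. Lrp2, the epithelial member, had 0 to 17 fragments per library with R55 and 0 to 30 with vehicle (exact permutation p = 0.175).

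Among the Reelin receptors, Lrp8 had 10.8, 9.8, 9.31 and 8.4 FPKM with vehicle and 8.29, 7.46, 8.24, 7.35 and 7.7 FPKM with R55. The groups did not overlap, and the lowest vehicle mouse, AH, was close to the highest R55 mouse. The difference was -0.26 ± 0.09 (SE), with an adjusted p-value of 0.545 and an exact permutation p of 0.0159. Lrp1b and Lrp8 were the 2 members whose groups did not overlap in this direction, which 1.43% of tested genes did. Vldlr had 10.5, 9.73, 10.7 and 9.21 FPKM with vehicle and 10.4, 8.66, 8.67, 7.97 and 7.53 FPKM with R55. The groups overlapped through mouse P, and the difference was -0.20 ± 0.11 (SE, adjusted p = 0.601; exact permutation p = 0.0635).

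The Wnt co-receptors and the agrin receptor differed less from vehicle than Lrp1, Lrp1b and Lrp8 did. The difference of Lrp4, -0.18 ± 0.15 (SE), was near that of Vldlr. Lrp6 was at 5.49 ± 0.468 FPKM (SD, n = 4) with vehicle and at 4.9 ± 0.0989 FPKM (n = 5) with R55, a difference of -0.14 ± 0.07 (SE, adjusted p = 0.589; exact permutation p = 0.0476). The corresponding values of Lrp5 were 3.6 ± 0.264 and 3.32 ± 0.662 FPKM (exact permutation p = 0.429), and those of Lrp4 were 5.71 ± 1.03 and 4.91 ± 0.576 FPKM (exact permutation p = 0.19). Lrp5 and Lrp4 overlapped broadly between the groups. Lrp3 was the only tested member with a higher mean under R55, 23.5 ± 0.726 against 22.5 ± 1.93 FPKM (exact permutation p = 0.365). In all, 27 exact tests were made over 9 members and 3 drug comparisons. Of these, 4 had a p under 0.05 for R55 against vehicle, 1 for R33 against vehicle and 1 for R55 against R33, without adjustment for their number.

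The calls depended on which other libraries set the spread. Without the R33 mouse AD, which is in neither group, the same difference had an adjusted p-value of 0.0303 for Lrp1 and of 0.00815 for Lrp1b, where 50 genes (0.385%) were called. Without its injected library alone, Lrp1b had an adjusted p-value of 0.0293, where 0.146% of genes were called, and Lrp1 of 0.0543. With the correlation between the hemispheres of a mouse modelled, the adjusted p-values of both were at least 0.846, and with 1 value per mouse 0.918. Without the 7 libraries over 100 FPKM of Ttr the differences were -0.515 for Lrp1 and -0.514 for Lrp1b, with adjusted p-values of 0.586.

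**Figure D2:**
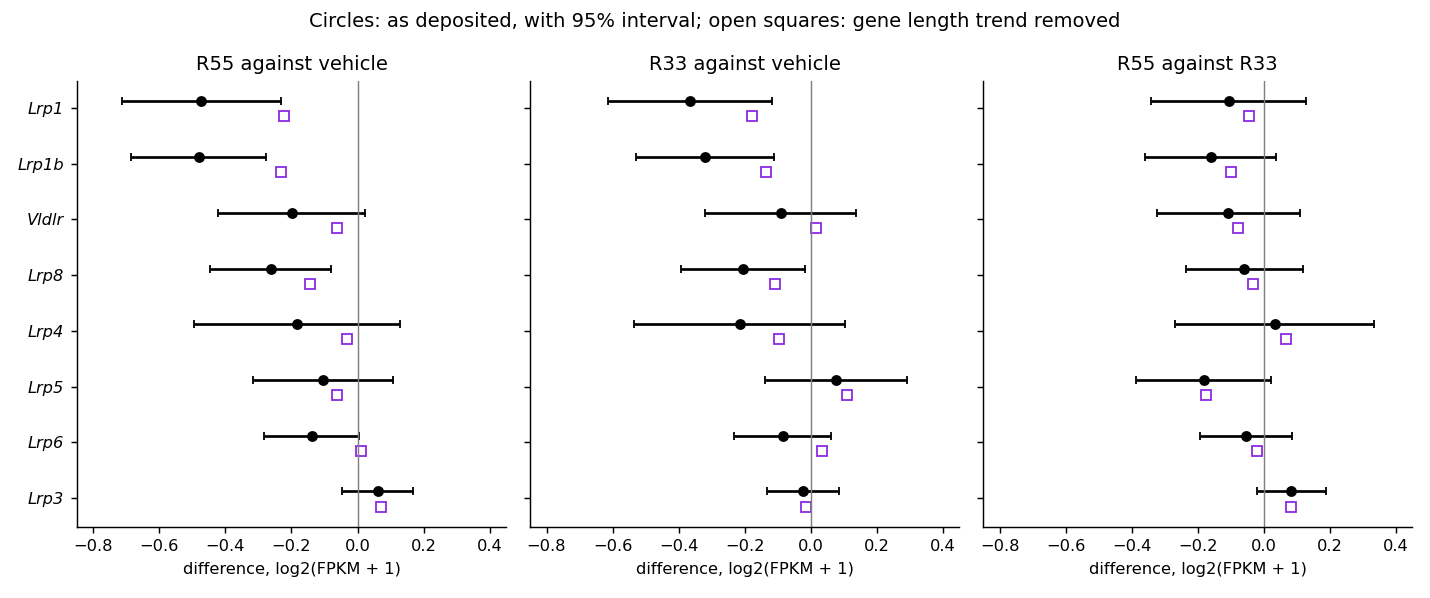
Difference of each tested member on the log2(FPKM + 1) scale (horizontal axis) for R55 against vehicle, R33 against vehicle and R55 against R33. Filled circles with bars are the values as deposited with their 95% intervals, and open squares the values after removal of the gene length trend, which bring Lrp1 from -0.47 to -0.22 and Lrp6 from -0.14 to 0.01 for R55.

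Gene length moved with these differences. The members are long: the lengths behind their FPKM were 14891 bp for Lrp1, 14743 bp for Lrp1b, 15425 bp for Lrp2, 9407 bp for Lrp4, 9366 bp for Lrp6, 8773 bp for Vldlr and 8155 bp for Lrp8, against a median of 3149 bp over all tested genes. Lrp5 (5172 bp) and Lrp3 (3994 bp) were nearer to that median. Across all tested genes the R55 difference was 0.11 in median for genes under 1000 bp, -0.12 for the 614 genes of 8000 to 12000 bp and -0.22 for the 139 genes of 12000 bp or more. In the last class, which holds Lrp1 and Lrp1b, 61.2% of genes were lower at an unadjusted p-value below 0.05, and in the class of Lrp4, Lrp6, Lrp8 and Vldlr 24.4% were. Whatever their p-value, 93.5% of genes in the former class and 88.8% in the latter were lower.

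When the trend of expression on gene length was removed from each library, the members' median difference for R55 was -0.06. Over all tested genes it was 0.02. Of the members 6 of 8 were lower, where 39.8% of tested genes were. At an unadjusted p-value under 0.05, 3 members were still lower, where 2.3% of tested genes were. Lrp1 was then at -0.22 ± 0.08 (SE), Lrp1b at -0.23 ± 0.07 and Lrp8 at -0.14 ± 0.06, each with an adjusted p-value of 0.721 in limma. The values of Lrp1 and Lrp1b thus came much closer to 0. Lrp6 went from -0.14 to 0.01, Lrp4 from -0.18 to -0.03 and Vldlr from -0.20 to -0.06.

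**Figure D3:**
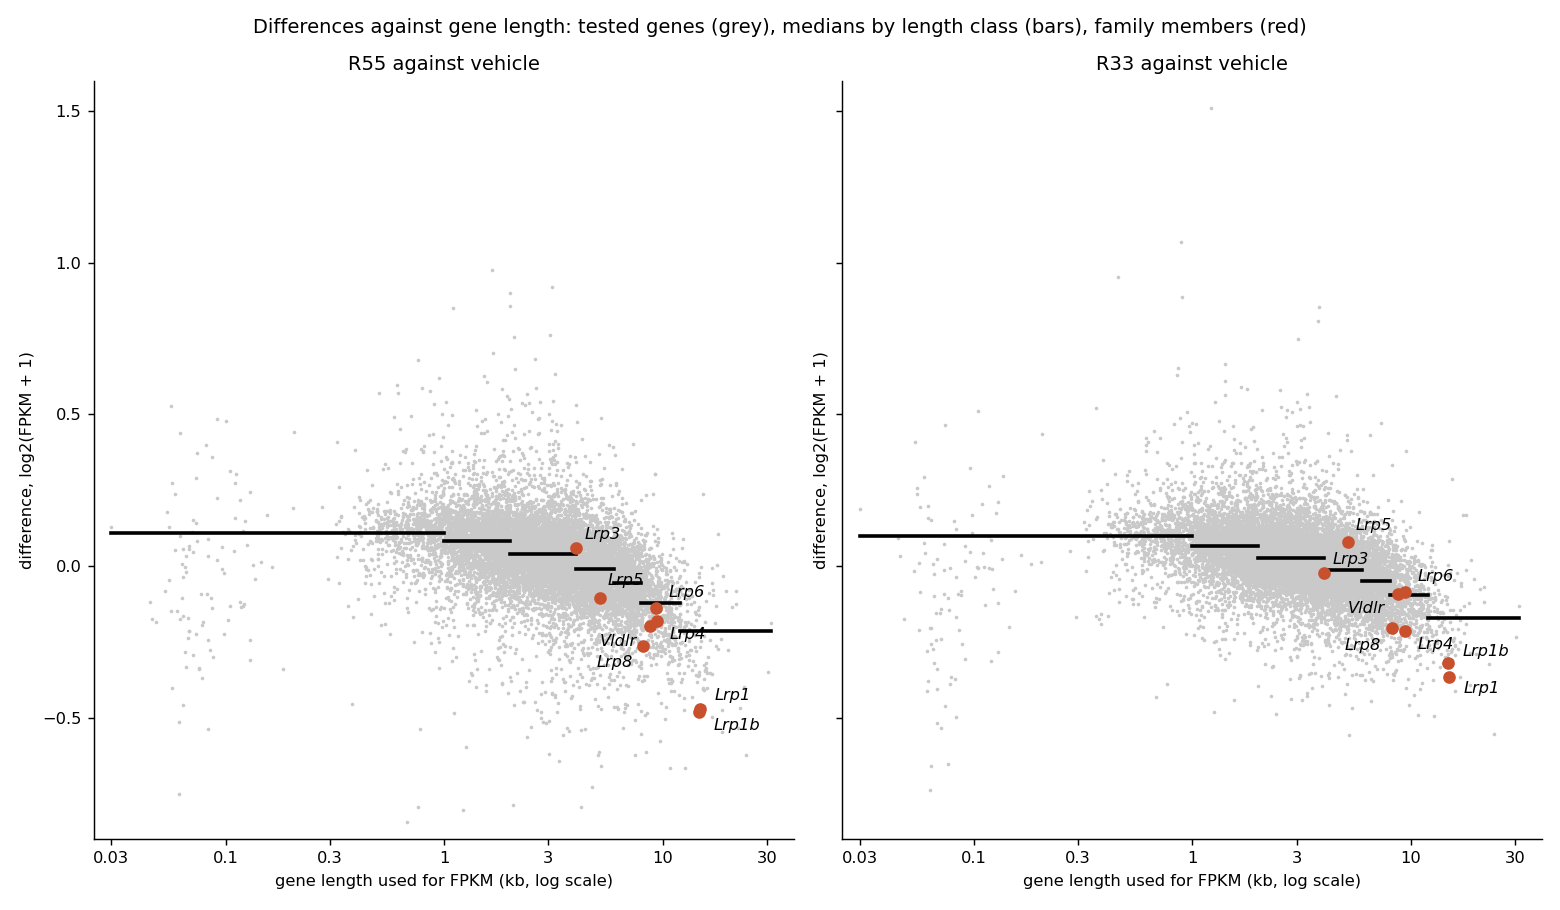
Difference on the log2(FPKM + 1) scale (vertical axis) against gene length in kb (horizontal log axis) for R55 and R33 against vehicle. Grey points are the tested genes, black bars the medians of length classes and red points the family members; the medians run from 0.11 under 1000 bp to -0.22 at 12000 bp or more for R55, and Lrp1 and Lrp1b lie below the bar of their class.

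R33 gave values of the same sign in most members, again with none past the test. With limma, 0 of 8 members and 0 of 12976 genes (0.0%) were called, 762 genes were under 0.05 before adjustment, and limma voom also called 0. The same 3 members, Lrp1, Lrp1b and Lrp8, had unadjusted p-values under 0.05 and were lower, where 2.68% of genes were. Both comparisons use the same 4 vehicle mice, so they are not independent. The median of the members was -0.15, beside 0.02 over all genes. The value of Lrp8 rested on counting the hemispheres as separate: its unadjusted p-value was 0.0607 once hemispheres of a mouse were modelled as correlated, and 0.0698 with 1 value per mouse.

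Lrp1 had 23.8, 30, 30.2, 18.3 and 28.1 FPKM in R33 mice K, N, O, AD and AE, of which 3 lay below the lowest vehicle mouse. The difference from vehicle was -0.37 ± 0.12 (SE, adjusted p = 0.834 in limma; exact permutation p = 0.0635). Lrp1b had 1.35, 1.69, 1.77, 0.775 and 1.41 FPKM, a difference of -0.32 ± 0.10 (SE, adjusted p = 0.834; exact permutation p = 0.0476). In both genes mouse AD was the lowest of the 14 mice. Lrp8 had 9.89, 8.73, 8.51, 6.07 and 8.01 FPKM in the same mice, of which 2 lay below the vehicle range, a difference of -0.20 ± 0.09 (SE, adjusted p = 0.834; exact permutation p = 0.175).

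No member had R33 and vehicle mice that did not overlap in this direction, where 0.378% of tested genes did. Vldlr in R33 mice held 10.7, 11.3, 10.7, 6.22 and 8.46 FPKM, with the 1-letter mice K, N and O at the top of the vehicle range or above it and the 2-letter mice below it. Lrp5 was the only tested member with a higher mean under R33, 3.9 ± 0.869 against 3.6 ± 0.264 FPKM (exact permutation p = 0.619). The R33 values moved with mouse AD: without it the members' median was -0.04, and without only its injected library -0.06. Without that library the difference of Lrp4 went from -0.215 to -0.09, that of Lrp6 from -0.08 to -0.03, that of Lrp8 from -0.20 to -0.13 (unadjusted p = 0.0787) and that of Vldlr from -0.09 to 0.01, while Lrp1 was at -0.295. With the length trend removed the median was -0.055, and 1 member (Lrp1) kept an unadjusted p-value under 0.05, where 1.83% of genes were lower at that level.

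The compounds were given at the same concentration and time, and no member separated them past the test. For R55 against R33, 0 of 8 members and 0 of 12976 genes (0.0%) were called in limma, and 0 members and 149 genes (1.15%) were under 0.05 before adjustment, with 0 called in limma voom. The differences, with 95% intervals, were -0.11 (-0.34 to 0.13) for Lrp1, -0.16 (-0.36 to 0.04) for Lrp1b and -0.06 (-0.24 to 0.12) for Lrp8. For Lrp4 the interval ran from -0.27 to 0.34, the widest of the 8. These intervals do not show that the compounds acted alike. Without the injected library of mouse AD the members' median went from -0.08 to -0.16, and 4 members (Lrp1b, Lrp5, Lrp6 and Vldlr) were lower under 0.05 before adjustment, where 1.55% of genes were, with 0 called. The sign of the members' median differed by label form, a split described further on. Among mice with a 1-letter label the members' median was -0.19 and 5 of 8 were lower under 0.05 unadjusted, where 2.01% of genes were. Among mice with a 2-letter label it was 0.15 and 0 of 8 were lower. The 2-letter comparison set only AA and AB (R55) against AD and AE (R33). It held the injected library of AD, lowest in several members, and AE had only its injected hemisphere. The part of mouse AD in this split was not tested. The choroid plexus markers were lower with R55 than with R33 (5 of 5, median -1.01, 4 under 0.05 unadjusted and 0 called), and their part was not tested. Lrp3 was slightly higher with R55, 23.5 ± 0.726 against 22 ± 0.644 FPKM (SD, n = 5 each), a difference of 0.08 (-0.02 to 0.19) with an exact permutation p of 0.0159 and an adjusted p of 1.0 in limma.

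The injected hemisphere did not differ from the contralateral one in any member past the test. With limma, 0 of 8 members and 0 of 12976 genes (0.0%) were called, 3.47% of genes and 0 members had an unadjusted p-value under 0.05, and limma voom also called 0. Over 13 mice with both hemispheres, Lrp1 was higher on the injected side in 6 and lower in 7, and its mean difference was 0.02 ± 0.28 (SD) on the log2(FPKM + 1) scale. Lrp5 was higher on the injected side in 10 of 13 mice, by 0.07 ± 0.17 (exact paired permutation p = 0.159). The widest spread was in Lrp4, at -0.06 ± 0.36, where mouse AD went from 3.97 FPKM on the contralateral side to 1.78 FPKM on the injected side. Mouse AD also had the lowest injected-minus-contralateral difference in Vldlr (7.52 to 4.93 FPKM) and Lrp8 (7.21 to 4.92 FPKM).

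**Figure D4:**
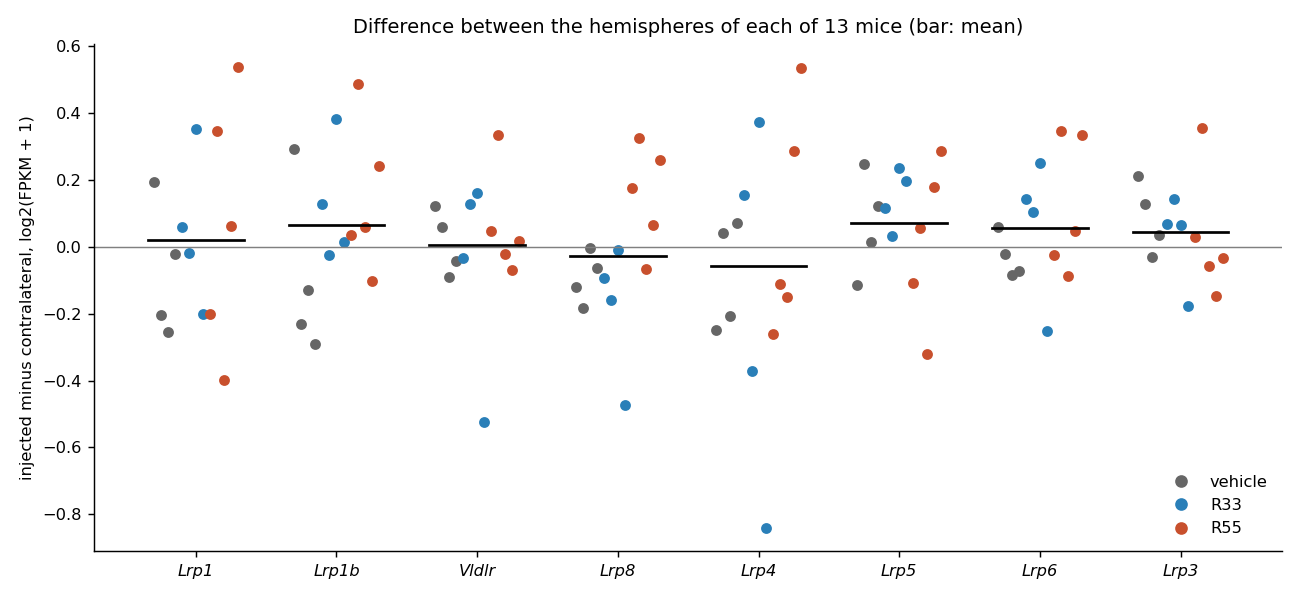
Injected minus contralateral difference on the log2(FPKM + 1) scale (vertical axis) for each of 13 mice and 8 members, coloured by treatment, with the mean as a bar. Means lie between -0.06 (Lrp4) and 0.07 (Lrp5), and the lowest points of Vldlr, Lrp8 and Lrp4 all belong to R33 mouse AD.

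Drug differences were also read within each hemisphere. For R55, Lrp1 was at -0.40 ± 0.17 (SE) on the injected side and at -0.54 ± 0.17 on the other, and Lrp1b at -0.37 ± 0.14 and -0.60 ± 0.14. Lrp8 was at -0.14 ± 0.12 on the injected side and at -0.39 ± 0.12 on the other. On the injected side 0 members and 0 genes (0.0%) were called by limma or limma voom, and 2 members were under 0.05 before adjustment, where 0.825% of genes were. In the contralateral hemisphere 0 members were called, where 0.0231% of genes were, and 4 members (Lrp1, Lrp1b, Lrp6 and Lrp8) had an unadjusted p-value under 0.05, where 11.2% of genes did. All 4 were lower, and of the genes at that level 588 were lower and 863 higher. Without R33 mouse AD, Lrp1b (adjusted p = 0.0165) and Lrp8 (adjusted p = 0.0305) were called there, where 0.694% of genes were. With the length trend removed, the members' median in the contralateral hemisphere went from -0.24 to -0.01. In that fit 2 members were lower at an unadjusted p-value under 0.05, where 251 of 12976 genes were lower and 691 higher. On the injected side the median went from -0.135 to -0.11.

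Whether R55 values differed between hemispheres was itself tested, and 0 members and 0 genes (0.0%) were called by limma or limma voom, with 1.84% of genes under 0.05 unadjusted. For Lrp8 this interaction was 0.24 ± 0.17 (SE, adjusted p = 0.999), and 0.24 ± 0.11 (adjusted p = 0.806) with the mouse as a replicate block. The members' median R55 interaction was 0.14, with 2 of 8 below zero. With the length trend removed it was -0.06, with 7 of 8 below zero. For R33, 0 members were called in either hemisphere and 0 genes (0.0%), with 0 members in the injected hemisphere (1.75% of genes) and Lrp1 and Lrp1b in the contralateral one (2.62% of genes) under 0.05 unadjusted. The R33 interaction called 0 members and 0 genes (0.0%), with 0.378% of genes under 0.05 unadjusted.

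Vldlr was the member that separated mice most clearly by the form of their label, a comparison added after the data had been seen. Over treatments and hemispheres, mice with a 2-letter label had 7.88 ± 1.12 FPKM (SD, n = 5) and mice with a 1-letter label 10.1 ± 0.926 FPKM (n = 9), a difference of -0.33 ± 0.07 (SE) with an adjusted p-value of 0.00316 in limma. Lrp1b (-0.25 ± 0.07, adjusted p = 0.0159) and Lrp8 (-0.22 ± 0.07, adjusted p = 0.0209) were called as well, so 3 of 8 members were, where 19.1% of tested genes were. With 1 value per mouse, which does not count the hemispheres as separate, Vldlr was called (adjusted p = 0.0379), where 5.71% of genes were, and Lrp1b (0.0905) and Lrp8 (0.0896) were not. With the length trend removed Vldlr was at -0.23 ± 0.04 (adjusted p = 0.000479). Summed endothelial markers had a range of 21.0 to 35.9 FPKM in 2-letter and 35.0 to 90.3 FPKM in 1-letter libraries, all 7 libraries high in Ttr had a 1-letter label, and their part in the result was not tested.

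Within label forms, the R55 difference of Lrp1b was -0.47 among 1-letter mice (3 against 3) and -0.41 among 2-letter mice (2 against 1), and that of Lrp1 was -0.39 and -0.69. For R33 the members' median was -0.01 among 1-letter mice and -0.34 among 2-letter mice, where AH was the single vehicle mouse and AD and AE the R33 mice. Vldlr was at 0.07 and -0.37 in these comparisons, and Lrp1 at -0.18 and -0.83. The difference between the label forms was not tested.

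No gene of the lists around the receptors was called for either drug. Of 14 tested ligands, 3 were higher and 1 lower at an unadjusted p-value under 0.05 for R55 against vehicle, where 4.71% of all genes were higher and 3.74% lower at that level. None (0) was called in either direction, and the median was 0.02, beside 0.03 over all genes. Apoe, the main lipid carrier in brain, had 1070 FPKM with vehicle, 1110 with R33 and 1140 with R55, a difference of 0.095 ± 0.139 (SE) for R55. Clu, also a lipoprotein component, was at 660, 711 and 726 FPKM. Ptn, a heparin-binding growth factor, was at 166 FPKM with vehicle, 197 with R33 and 194 with R55 (0.24 ± 0.09, adjusted p = 0.552), and Ccn1, a matrix-associated protein, at 3.13, 3.24 and 5.02 FPKM (0.52 ± 0.19, adjusted p = 0.552). Of 15 tested chaperones, adaptors and turnover genes, 0 were called and 0 were under 0.05 unadjusted for either drug, with medians of 0.05 for R55 and 0.01 for R33. Apbb1, an adaptor that binds the Lrp1 tail, was at 139, 140 and 144 FPKM, and Mapk8ip1 at 138, 138 and 137 FPKM. Dab2, an endocytic adaptor of NPxY motifs, was at 2.62, 3.38 and 3.49 FPKM (0.28 ± 0.18 for R55), and Amn, a partner of the receptor cubilin, at 3.56, 3.28 and 4.47 FPKM (0.26 ± 0.19).

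Of 10 Reelin signalling genes, 0 were called for either drug and 1 was lower under 0.05 unadjusted for R55, with a median near zero. That gene was Reln itself, the ligand of Vldlr and Lrp8, at 5.1 FPKM with vehicle, 4.44 with R33 and 3.81 with R55 (-0.33 ± 0.15, adjusted p = 0.584), and its length of 11698 bp puts it in the class of long genes. Fyn, a kinase of the pathway, was at 38.8, 38.5 and 38.2 FPKM, and Pafah1b1 at 102, 99.1 and 97.9 FPKM, and Rapgef1 at 28.2, 28.3 and 30.5 FPKM. Of 20 tested Wnt partners of Lrp5 and Lrp6, 2 were higher under 0.05 unadjusted for R55 and 0 were called, with a median of -0.01. These were Rspo1, a secreted Wnt enhancer, at 9.86, 12.4 and 14.8 FPKM (0.58 ± 0.27, adjusted p = 0.579), and the Wnt receptor Fzd2 at 3.57, 4.01 and 4.36 FPKM (0.24 ± 0.11, adjusted p = 0.579). Ctnnb1, which encodes beta-catenin, was at 122, 122 and 118 FPKM, and Dkk3 at 144, 122 and 142 FPKM.

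Of 2 tested agrin receptor partners, 0 were called and 0 were under 0.05 unadjusted for R55, while for R33 1 was lower and 1 higher at that level, where 2.68% of genes were lower and 3.19% higher. Agrn, the ligand of Lrp4, was at 16.1, 13.2 and 14.3 FPKM (-0.24 ± 0.11 for R33), and Dok7 at 4.67, 5.16 and 5.08 FPKM (0.13 ± 0.06 for R33, adjusted p = 0.834 for both). Of 6 other tested genes with class A repeats, 6 were lower with R55, where 39.8% of all genes were, 0 were called and 1 was under 0.05 unadjusted, with a median of -0.11. That gene was Sorl1, a sorting receptor that retromer recycles, at 40.4 FPKM with vehicle, 31.1 with R33 and 29.8 with R55 (-0.41 ± 0.14 for R55, adjusted p = 0.545), with a length of 11243 bp. Lrp11 was at 48.3, 45.5 and 44.5 FPKM.

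Most members other than Lrp3 varied together across the 14 mice. Of 28 pairs of tested members, 22 had a positive Pearson correlation of mouse means, with a median of 0.53, and 13 had a permutation p under 0.05 after Benjamini-Hochberg adjustment over the 28. All 6 negative pairs held Lrp3, and 1 of the 13 was such a pair, Lrp3 with Lrp6 (r = -0.61, adjusted permutation p = 0.0463). By Spearman's rho only 5 pairs had an adjusted p under 0.05. The Reelin receptors Lrp8 and Vldlr were the closest pair, with r = 0.83 (permutation p = 0.00033, adjusted p = 0.00721) and Spearman's rho = 0.84 (permutation p = 0.00039, adjusted p = 0.00546). Without the 2 mice farthest from the median r was 0.73, and among the 9 mice with a 1-letter label it was 0.51. Lrp1 and Lrp1b had r = 0.79 (permutation p = 0.00082, adjusted p = 0.00721), rho = 0.75 (permutation p = 0.00246, adjusted p = 0.0206), 0.75 without the 2 farthest mice and 0.75 among the 1-letter mice. Other pairs held less well: Lrp4 with Lrp6 went from 0.76 to 0.44 without the 2 farthest mice and to 0.32 among the 1-letter mice. Lrp4 with Lrp8 (0.46) and with Vldlr (0.50) was at -0.12 and -0.04 among the 1-letter mice. Lrp5 with Lrp6 (0.65) stayed at 0.70 and 0.57 in these 2 checks. The 14 mice share treatment groups and label forms, and the tested members other than Lrp5 and Lrp3 are all long (8155 to 14891 bp).

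By Pearson correlation over the 14 mouse means, the genes most alike each member ranged widely in length. For Lrp1 they were Huwe1 (r = 0.94, 14624 bp) and Htt (r = 0.92, 13219 bp). For Lrp1b they were Fry (r = 0.97, 10730 bp), Polr3a (r = 0.95, 4695 bp) and Gtf3c1 (r = 0.94, 6869 bp), for Lrp8 Atp13a3, Clock and Med12l (r = 0.93 to 0.94, 7310 to 10245 bp), and for Vldlr Dmxl1, Shprh and Nup153 (r = 0.96 to 0.97, 6021 to 12211 bp). The 50 genes most alike had a median length of 11885 bp for Lrp1, 10584 bp for Lrp1b, 9923 bp for Lrp8, 9458 bp for Lrp6, 7248 bp for Vldlr, 6912 bp for Lrp4 and 4871 bp for Lrp5, against 3149 bp over all tested genes. Lrp4 was nearest to Ntrk2, Ptprz1 and Plxnb1, Lrp6 to Tcp11l1 (3512 bp), Taok1 (12559 bp) and Kat6a (9116 bp), Lrp5 to Lgr6, Adgra3 and Myo10, and Lrp3 to Smg5, Ppme1 and Cpne5, whose 50 nearest genes had a median length of 3273 bp.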

How the data were processed

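The authors made stranded mRNA libraries from column-purified RNA and mapped the read pairs with HISAT2 to GRCm39. The tool that counted fragments is not given in the sources used here. They deposited FPKM in 1 table of 32 libraries, of which 27 were used and 5 were not used here. Of the positive FPKM, 100.0% were whole multiples of 1 fragment within 0.01, so fragments and gene lengths were recovered, and limma voom on these fragments called 1 gene for R55 against vehicle. Library totals ran from 15932197 to 38077027 fragments.

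limma 3.58.1 (R 4.3.3, statmod 1.5.0) was fitted to log2(FPKM + 1) of the genes whose mean reached 1 FPKM, with treatment and hemisphere as additive factors, an intensity trend and Benjamini-Hochberg adjustment over all 12976 genes, with calls under 0.05. A fold change on this scale understates low genes. Libraries of 1 mouse count as separate there, so its p-values rest on a spread that mixes variation within mice and between mice. Hemispheres of a mouse share its label: over 13 pairs, deviations from group means correlated at 0.39 on average (-0.08 to 0.65), and the mouse was added as a block or a modelled correlation in alternatives. Exact permutation tests were two-sided, over mouse means (Python 3.11.15, scipy 1.17.1). The length trend was removed by lowess with a span of 0.3. The fit was also run on simulated libraries drawn independently, without correlation within a mouse and without a length trend. That run therefore cannot show how the fit behaves with either.

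The 9 members described are named, and 1 further member and 1 further list of genes are not reported here. From each list of ligands, adaptors, Reelin, Wnt, agrin and class A repeat genes, the 2 with the highest mean and the 2 with the smallest p for R55 are named. The members, lists and comparisons were chosen with earlier results of these data known.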

Additional observations from a re-analysis of the deposited data

Results flagged for a closer look

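In 54 groups of 4 or 5 libraries (9 members in 6 treatment by hemisphere groups), 4 held a library that stood apart from the others by Dixon's test at the 95% level, and chance gives about 1 in 20. In the contralateral hemisphere of R55 mice, mouse R had 33.6 FPKM of Lrp1 where the next was 22.6 and the lowest 19.2, and 4.9 FPKM of Lrp5 where the next was 3.08. In the injected hemisphere of R55 mice, mouse P had 0.0388 FPKM of Lrp2 where the next had 0.00386. In the injected hemisphere of R33 mice, mouse AD had 3.55 FPKM of Lrp6 where the others had 5.78 to 5.87. No member was called in the tests of a drug by hemisphere interaction. The intervals of the main fit do not show equal effects, and that of Lrp8 for R55 ran from -0.11 to 0.60. With the mouse as a replicate block, 1 member had an unadjusted p-value under 0.05 for R55, where 770 of 12976 genes did.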

How the results depend on the processing

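In the comparisons of R33 with vehicle, of R55 with R33 and of the hemispheres, every alternative run left 0 members called. For R55 against vehicle, 1 member (Lrp1b) was called with only the compared treatments (12 genes called) and without the injected library of mouse AD (19 genes). Genes called for R55 were 0 with no filter, median-of-ratios scaling, the correlation within mice modelled, the label form as a covariate, 1 value per mouse, the length trend removed (alone or with one of the last 3), 2-letter mice only, or no libraries over 100 FPKM of Ttr, and 5 with 1-letter mice only. For R33 they were 1 with no filter and 2 with the length trend removed, and for the hemispheres 1 when hemispheres of a mouse were modelled as correlated and 4 when the length trend was removed as well. In the contralateral hemisphere R55 called 3 genes, and 0 with no filter, median-of-ratios scaling or without the libraries high in Ttr, 1 with the lower filter of 0.1 FPKM, limma voom or the length trend removed (also with the modelled correlation), and 18 without the injected library of AD. The members' median was -0.341 for R33 in 2-letter mice and 0.15 for R55 against R33 in 2-letter mice. The label comparison called 741 genes and 1 member with 1 value per mouse and 1345 genes and 1 member with the correlation modelled. The causes were not tested. Leaving out the libraries high in Ttr or the injected library of AD, the length trend combined with another setting, and the label comparison were chosen after seeing the data.

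Leaving out 1 mouse at a time, R55 against vehicle called 0 to 50 genes and 0 to 2 members, with a members' median of -0.23 to -0.16. In its contralateral hemisphere 0 to 90 genes and 0 to 2 members were called, and for R55 against R33 0 to 2 genes, with a members' median of -0.20 to -0.035. The highest counts came without mouse AD. The members' median for R33 was -0.20 to -0.04. With the mouse as a replicate block, the paired hemisphere contrast called 0 genes and 0 members and the members' median was 0.03. The block changed no other call of a member, and drug contrasts cannot carry it because each mouse had 1 treatment. Lrp2 was close to the limit of detection, with a median of 6 fragments per library.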
